A study of Mus musculus with 6 samples.

Results

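Mitochondrial fission and fusion genes were described here in whole mouse kidneys at E13.5, in 3 YapCM-/- and 3 control arrays. The set holds 8 genes, Mff, Fis1, Dnm1l, Mfn1, Mfn2, Opa1, Gdap1 and Mtfr1, and takes every probe that the platform annotation gives to these symbols, which came to 24 of the 45281 probes on the array. The genes were put together with the YapCM-/- against control difference of an Mff probe, and the disagreement of the Mff probes, already known. All values of these genes in this contrast, and the count of their probes past a threshold, are therefore a description, with nothing read from them as a test. Kidneys named YapCM-/- carry a loss of Yap, the transcriptional coactivator restrained by Hippo signalling, in part of their cells. From what is known of the study, CM is the cap mesenchyme, which holds the progenitor cells of the nephron, with deletion by a Cre under Six2 control, so cells outside that lineage keep the gene. The labels state neither this nor the genotype of the control animals. All 6 samples had a mixed background of C57BL/6 and 129S1/SvImJ. Nothing in the labels says whether replicates were separate embryos or pools, so the spread between them may be technical in part.

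Mitochondria divide and join continually. Division needs the dynamin-like GTPase DRP1, the product of Dnm1l, which is drawn from the cytosol to the outer membrane by receptors such as MFF and FIS1. Joining needs the mitofusins MFN1 and MFN2 on the outer membrane and OPA1 on the inner membrane. MFF, FIS1 and DRP1 also act in the division of peroxisomes. GDAP1, an outer membrane protein best known from peripheral nerve, and MTFR1 act on the side of division. In the mature kidney the proximal tubule is rich in mitochondria.

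Values are log2 signals that had been normalized to a common distribution, with a median of 7.30 on every array. The limma fit tested the upper 50% of probes by mean signal, above 7.29, and 14 of the 24 probes, from 7 of the 8 genes, lay among these. The other 10, with values between 6.88 and 7.43, are listed without a test. On the leading principal component control replicate 2 stood apart, at 23.0 with a gap of 17.2 to the nearest array, and values without it are given where they matter. The Yap1 probe fell, at 8.87 ± 0.14 in YapCM-/- and 9.73 ± 0.09 in control kidneys (SD, n = 3 each), a difference of -0.86 on the log2 scale (limma adjusted p = 0.0102, SE 0.093). Its position relative to the deletion was not used here. In RNA of whole organs, fewer cells of a type and less RNA per cell cannot be told apart.

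Mff is the gene on which the description turns, so its promoter is shown. The set of promoter windows used (GRCm38.p6) holds 2 start sites of Mff, 28 bases apart. RefSeq gives Mff 24 transcripts, 13 curated and 11 predicted. The window of the upstream start site, chr1:82724640-82724939 on the plus strand, runs from 250 bases before the start, in lower case, to 50 bases from it on, in capitals.
Mff: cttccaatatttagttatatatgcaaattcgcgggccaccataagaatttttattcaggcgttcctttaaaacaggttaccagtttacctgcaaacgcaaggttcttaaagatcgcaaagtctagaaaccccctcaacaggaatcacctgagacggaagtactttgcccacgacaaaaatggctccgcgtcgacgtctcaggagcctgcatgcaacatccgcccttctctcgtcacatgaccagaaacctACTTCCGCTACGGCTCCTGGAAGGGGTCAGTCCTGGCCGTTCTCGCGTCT
TEAD factors, the DNA-binding partners of YAP, are known to bind the motif GGAATG, which is why it was looked for. Searched on both strands, it was in 0 of the 11 windows that the table holds for 6 of the 8 genes, and in 14.7% of the 32851 windows of all genes. That says only that these letters are not in these 300-base windows.

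The 4 Mff probes differed in size and direction. Probe ILMN_2998593 was lower in YapCM-/- kidneys, at 9.57, 9.76 and 9.58 in the 3 YapCM-/- arrays, against 10.35, 10.74 and 10.33 in the 3 control arrays. The groups did not overlap, the lowest control array stood 0.57 above the highest YapCM-/- array, and replicate 2 was the highest of its group on both sides. The group means were 9.64 ± 0.11 in YapCM-/- and 10.48 ± 0.23 in control kidneys (SD, n = 3 each), a log2 difference of -0.84 (SE 0.117), so that the control level was 1.79-fold that of YapCM-/- kidneys. Without control replicate 2, the highest control array and the one that stood apart, the difference was -0.70. Probe ILMN_2732961 read 8.29, 8.08 and 8.57 in YapCM-/- kidneys, against 7.90, 8.09 and 8.12 in control kidneys. Its difference was 0.28 (SE 0.122), and YapCM-/- replicate 2 lay within the control range, so the groups overlapped. It was 0.15 without YapCM-/- replicate 3 and 0.43 after normexp, a background correction, the lowest and highest values with the settings tried. Probe ILMN_1233002, annotated to a cDNA clone, read 7.26, 7.33 and 7.29 in YapCM-/- and 7.22, 7.28 and 7.36 in control kidneys, with a difference of 0.01 (SE 0.076). It lay just inside the filter on dim probes, while the nearest probe of the set just outside it was an Opa1 probe, ILMN_1218742, with a mean of 7.27. Probe ILMN_2598648, below the filter, averaged 7.10 ± 0.09 in YapCM-/- and 7.02 ± 0.06 in control kidneys (SD, n = 3 each; difference 0.08, SE 0.067).

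The annotation assigns ILMN_2998593, ILMN_2732961 and ILMN_2598648 to the same RefSeq transcript of Mff. Within each array, the log2 signal of ILMN_2998593 minus that of ILMN_2732961 was 1.28, 1.68 and 1.01 in YapCM-/- kidneys, against 2.45, 2.66 and 2.21 in control kidneys. The 2 groups of ratios did not overlap, and their means differed by -1.12. That restates the disagreement for which the Mff probes were listed, and does not say which of them follows the amount of Mff RNA. Averaged over its 4 probes, Mff differed by -0.12. The positions of the probes along the 24 transcripts were not used here.

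**Figure D1:**
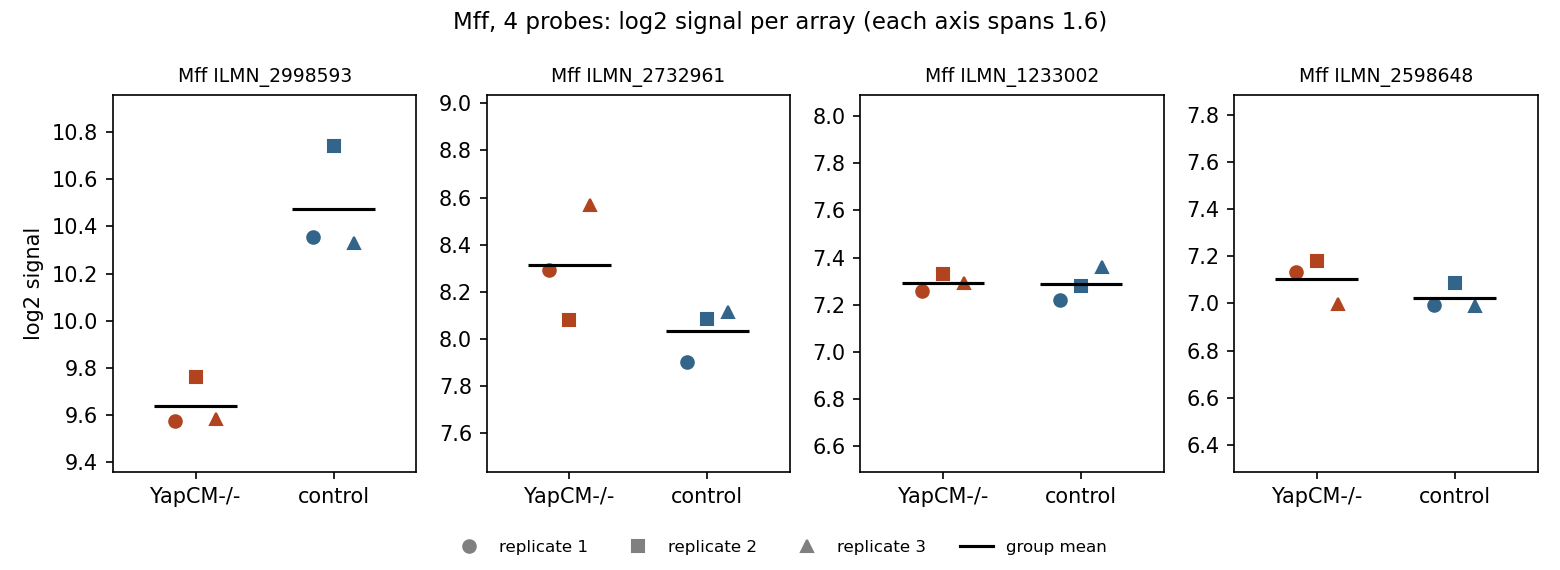
Log2 signal of the 4 Mff probes on each array, YapCM-/- on the left and control on the right of each panel, with marker shapes for replicate numbers and a line at the group mean; all vertical axes span 1.6 log2 units. Probe ILMN_2998593 is lower on all 3 YapCM-/- arrays, by 0.84 in the mean, and the groups of the other 3 probes overlap.

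Probe ILMN_2998593 was the 1 probe of the 14 tested ones past an adjusted p of 0.05 in limma, where 0.177% of all tested probes (40 of 22640) passed; this difference helped to choose the genes, so nothing is read from the count. The count was 0 when any of the 6 arrays was left out and after normexp, and the difference of the probe lay between -0.93 and -0.70 in these fits. The 3 genes whose tested probes ran most like it over the 6 arrays were Ccdc6 (Pearson r = 0.994), Qprt (r = 0.993) and Esd (r = 0.992), out of 18683 probes compared. Such values are a description of 6 points that share the split into groups.

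All 7 genes of the cap mesenchyme list and all 7 of the ureteric bud tip list had a tested probe, as did 3 of 5 skeletal muscle genes and 4 of 6 genes of neurons and glia with a probe. Markers of several cell populations moved between the same groups. Over all genes with a tested probe 0.264% passed in limma, and at an unadjusted p under 0.05 stood 6.86% on the lower and 6.6% on the higher side. Of the proximal tubule list 3 of 7 tested genes fell (Pdzk1, Lrp2 and Keg1, limma), and the mean log2 level of its 9 genes with a probe lay at 7.44 to 7.58 in YapCM-/- and 7.88 to 8.22 in control kidneys. In the cap mesenchyme list 2 of 7 genes fell (Meox2 and Cited1) and 5 did not pass. Of the 7 differences 3 were positive, among them Eya1 at 0.34 (limma adjusted p = 0.242). The other 4 were negative, among them Six2 at -0.36 (adjusted p = 0.193). At an unadjusted p under 0.05 in limma stood 3 lower and 1 higher. The mean level of the list lay at 8.83 to 8.96 in YapCM-/- and 9.12 to 9.16 in control kidneys. For early nephron genes 0 of 7 passed in limma, while at an unadjusted p under 0.05 stood 5 lower and 1 higher, Pax8 at 0.39 (adjusted p = 0.231). Their mean level lay at 9.32 to 9.47 in YapCM-/- and 9.56 to 9.73 in control kidneys. In the ureteric bud tip list 2 of 7 genes rose (Ret and Sox9), with a mean level of 8.85 to 9.08 in YapCM-/- and 8.62 to 8.67 in control kidneys. In the renal stroma list 0 of 6 genes passed, with 2 lower at an unadjusted p under 0.05 in limma. For endothelium it was 0 of 6, with 2 higher. Erythroid genes (0 of 5), genes of neurons and glia (0 of 4, with 1 lower at the unadjusted p) and skeletal muscle genes (0 of 3) did not pass. The part of these populations in the Mff values was not tested.

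Dnm1l, the GTPase that constricts the dividing mitochondrion, had 4 probes, and all 4 lay in the tested part of the array. RefSeq lists 25 transcripts for this gene, many of them splice variants. The probes split evenly by direction, with none of the differences above 0.17 in size. Probe ILMN_2511121 read 10.94, 10.79 and 10.82 in YapCM-/- kidneys, against 10.65, 10.64 and 10.82 in control kidneys, a difference of 0.15 (SE 0.084), from 0.11 to 0.21 with the settings tried. Control replicate 3 lay within the YapCM-/- range, and the other 2 control arrays lay below it. Probe ILMN_3111421 read 9.38, 9.34 and 9.17 in YapCM-/- and 9.33, 9.13 and 8.91 in control kidneys, a difference of 0.17 (SE 0.112) with overlapping groups. It was 0.07 without control replicate 3 and 0.28 without control replicate 1. The remaining probes were on the other side of 0. Probe ILMN_2660267, annotated to another RefSeq transcript than the other 3, read 8.80, 8.79 and 8.57 in YapCM-/- and 8.78, 8.88 and 8.91 in control kidneys (difference -0.14, SE 0.088, and -0.06 without YapCM-/- replicate 3). Probe ILMN_1220522 read 7.54, 7.71 and 7.86 in YapCM-/- and 7.71, 8.03 and 7.78 in control kidneys (difference -0.14, SE 0.110). Without control replicate 2, its highest array, that difference was -0.05, without YapCM-/- replicate 1 it was -0.06, without YapCM-/- replicate 3 it was -0.22, and after normexp it was -0.26. Within each array, the log2 signal of ILMN_2511121 minus that of ILMN_2660267 was 2.14, 2.01 and 2.25 in YapCM-/- kidneys, against 1.87, 1.76 and 1.91 in control kidneys. These within-array values did not overlap between the groups, although each probe by itself did. The pair was 1 of 3 that set ILMN_2511121 against another Dnm1l probe, and the other 2 overlapped. Pairs among the remaining Dnm1l probes were not compared. The share of such pairs without overlap in other genes was not computed, so nothing is read from this pair.

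**Figure D2:**
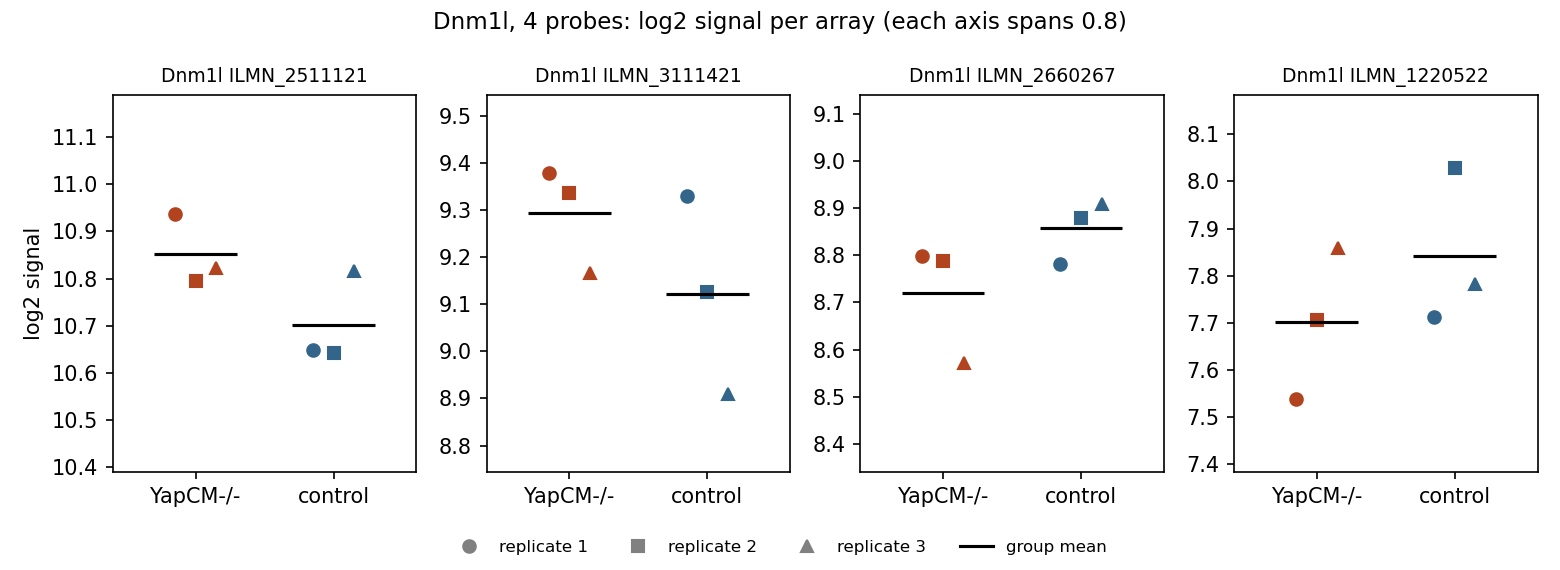
Log2 signal of the 4 Dnm1l probes on each array, drawn as for Mff, YapCM-/- on the left and control on the right of each panel, with vertical axes that span 0.8 log2 units. The mean is higher in YapCM-/- kidneys for ILMN_2511121 (by 0.15) and ILMN_3111421 (by 0.17) and lower for ILMN_2660267 and ILMN_1220522 (both -0.14), and the groups overlap in every panel.

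Fis1, a small tail-anchored protein of the outer membrane, had 2 probes. On both probes replicate 1 was the highest array of each group. Probe ILMN_2939295 read 11.15, 10.84 and 10.92 in YapCM-/- kidneys, against 11.01, 10.83 and 10.74 in control kidneys. Probe ILMN_2939294 read 10.57, 10.28 and 10.10 in YapCM-/- kidneys, against 10.35, 10.18 and 9.97 in control kidneys. The differences of 0.11 (SE 0.106) and 0.15 (SE 0.131) were smaller than the SD within the YapCM-/- group, 0.17 and 0.24, and the groups overlapped. With the settings tried, including each array left out, they ran from 0.01 to 0.18 and from 0.03 to 0.26, with both lowest values without YapCM-/- replicate 1.

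Mfn1, a mitofusin that tethers the outer membranes of adjacent mitochondria, had 3 probes. Probe ILMN_2950837 read 9.59, 9.50 and 9.59 in YapCM-/- kidneys, against 9.46, 9.36 and 9.34 in control kidneys. The groups did not overlap, by a margin of 0.04 log2 units, and the difference was 0.17 (SE 0.077), from 0.15 to 0.21 with the settings tried. Besides the Mff probe, this was the only tested probe of the set without overlap, 2 of 14 in all, where 16.5% of all tested probes had none. Probe ILMN_2719296 of the same gene read 9.34, 9.11 and 9.07 in YapCM-/- and 9.30, 8.85 and 9.10 in control kidneys, a difference of 0.09 (SE 0.121) with overlap, and the sign turned without control replicate 2 (-0.03). Both are annotated to 1 RefSeq transcript. Probe ILMN_1232014 lay below the filter, with a difference of -0.05.

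Mfn2, the mitofusin that also links mitochondria to the endoplasmic reticulum, had 1 probe. It read 10.22, 10.33 and 10.38 in YapCM-/- kidneys, against 10.40, 10.27 and 10.51 in control kidneys. The difference was -0.09 (SE 0.089), smaller than the SD of 0.12 within the control group, and the groups overlapped. Leaving out control replicate 2, the array that stood apart, made it -0.15, leaving out control replicate 3 made it -0.03, and leaving out YapCM-/- replicate 1 made it -0.04.

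Opa1, the dynamin-like GTPase that fuses inner membranes and shapes the cristae, was read by 3 probes, all annotated to 1 RefSeq transcript and all with low signal. The 1 tested probe, ILMN_1247460, read 7.49, 7.47 and 7.25 in YapCM-/- and 7.24, 7.56 and 7.41 in control kidneys, with a difference of -0.0011 (SE 0.103). The groups covered almost the same range. The other 2 probes differed by at most 0.06 in size.

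Gdap1 and Mtfr1 were also read only at low signal. Of 5 Gdap1 probes 1 was tested, ILMN_2900962, which read 7.37, 7.41 and 7.61 in YapCM-/- and 7.50, 7.47 and 7.38 in control kidneys (difference 0.01, SE 0.088). YapCM-/- replicate 3 was its highest array. The other 4 Gdap1 probes lay between 6.95 and 7.24 and differed by at most 0.04 in size. Both Mtfr1 probes fell below the filter, between 6.88 and 7.18, with differences of -0.01 and 0.04. At such signals a difference in the transcript could be compressed, since the values carry no visible background subtraction.

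Over the set, 13 of the 24 probes were higher and 11 lower in YapCM-/- kidneys, with a median difference of 0.01, against 0.0003 over all 45281 probes. Among the 14 tested probes the median was 0.05, against 0.0014 over all tested probes, and 13 of them lay between -0.14 and 0.28. Their median size was 0.14, against 0.08 over all tested probes. Fission genes other than Mff and the fusion genes gave no difference above 0.17 in size on any probe.

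**Figure D3:**
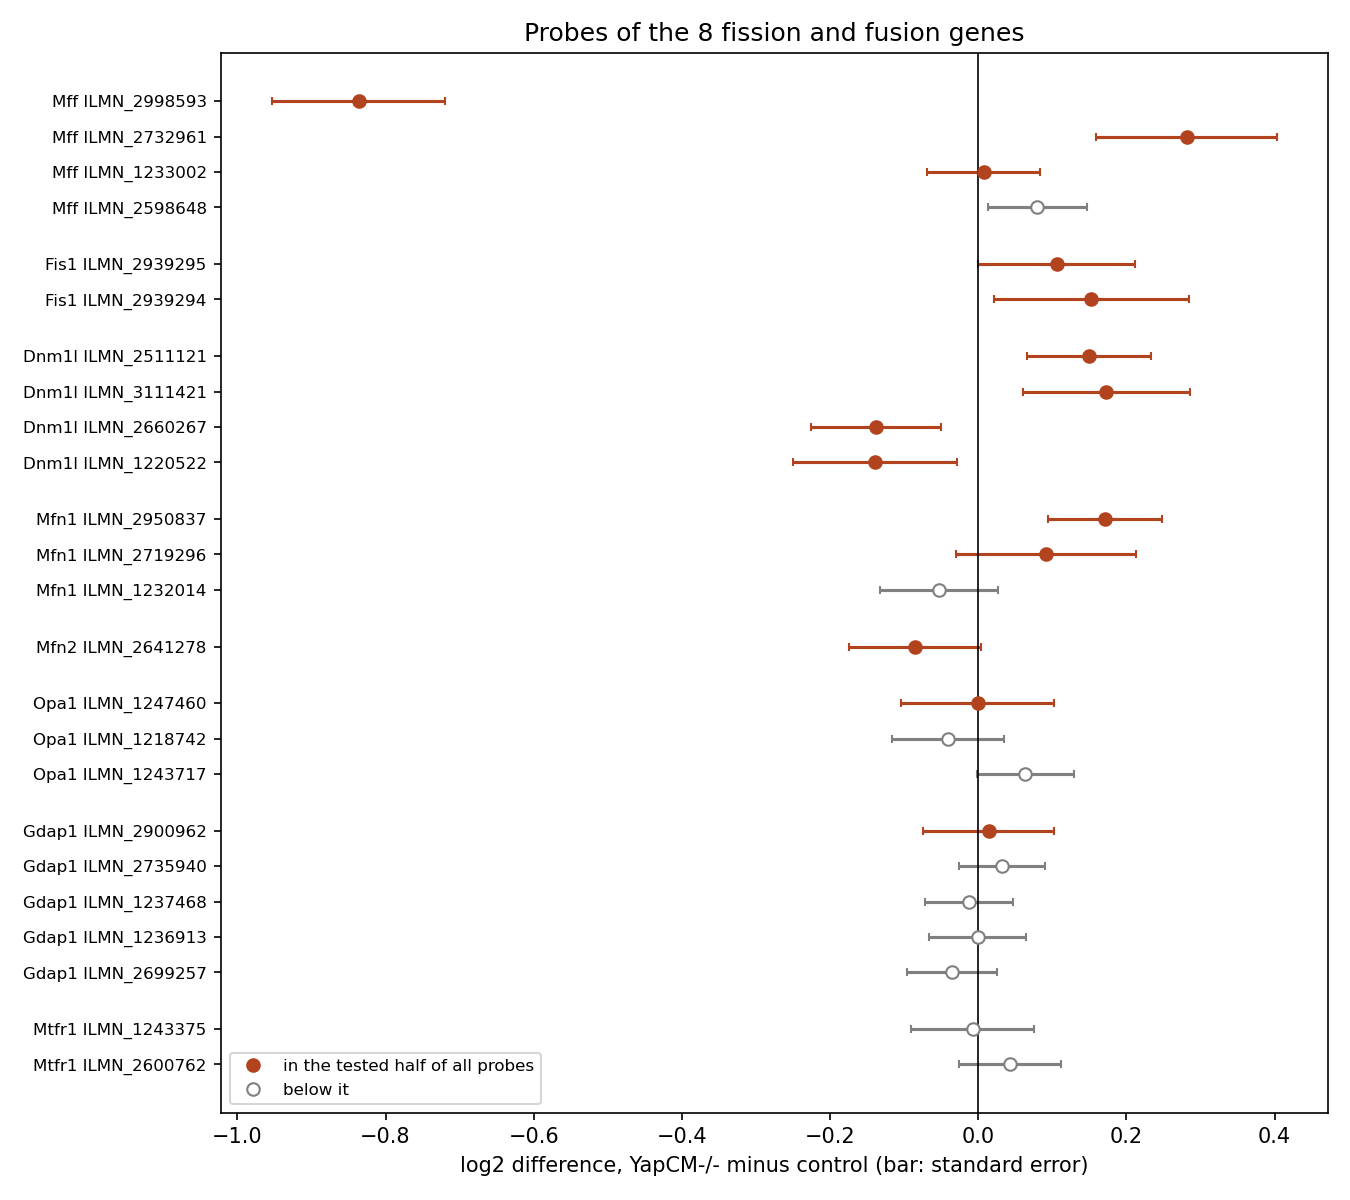
Log2 difference, YapCM-/- minus control, of all 24 probes with the standard error as a bar, grouped by gene; filled points were tested and open points lay below the filter on dim probes. Of the filled points 13 lie between -0.14 and 0.28, and the Mff probe at -0.84 stands apart.

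The wider machinery was described with 6 further lists of 80 genes, of which 60 had a tested probe. By limma 0 of the 60 passed, against 0.264% of all 11762 genes. At an unadjusted p under 0.05, 10 of the 60 (16.7%) were lower in YapCM-/- kidneys, against 6.86% of all genes, and 1 (1.67%) was higher, against 6.6% of all genes. The median difference of the 60 genes was -0.03, against 0.0039 over all genes, and each gene was read by its tested probe with the highest mean. Other tested probes of some of the genes counted lay near 0 or on the other side, as given below.

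Fission adaptors and helpers stood near 0. Of 7 tested genes 0 passed in limma, 0 stood at an unadjusted p under 0.05, and the median was 0.04. Mtfr1l, a relative of Mtfr1, was at 0.13 (limma adjusted p = 0.559), and Spire1, an actin nucleator with a form on mitochondria, at -0.10 (adjusted p = 0.712), while its 3 other tested probes were positive, from 0.07 to 0.11.

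Of 12 tested fusion regulators and OPA1-processing factors, 8 were lower and 4 higher, and 0 passed in limma. The median was -0.07, and 3 had an unadjusted p under 0.05, all lower on the probe with the highest mean. Of these 3, Immt was at -0.27 on that probe and at 0.22 on another tested probe. Usp30, a deubiquitinase of the outer membrane, had 7.55 ± 0.04 in YapCM-/- and 7.80 ± 0.10 in control kidneys (SD, n = 3 each), a difference of -0.25 (limma adjusted p = 0.277). Spg7, a subunit of the m-AAA protease of the inner membrane, had 9.04 ± 0.17 in YapCM-/- and 9.35 ± 0.11 in control kidneys, a difference of -0.32 (adjusted p = 0.282), with its other tested probe at -0.27. Neither gene passed.

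Among kinases, phosphatases and SUMO enzymes that act on DRP1, 0 of 13 tested genes passed in limma, 1 was higher at an unadjusted p under 0.05, and the median was 0.02. Ppp3ca, the catalytic subunit of calcineurin, which removes an inhibitory phosphate from DRP1, was at 0.24 (limma adjusted p = 0.379) on the probe with the highest mean and at -0.23 on another tested probe. Akap1, the anchor of protein kinase A at the outer membrane, was at -0.18 (adjusted p = 0.515), with its other tested probes at 0.01 and 0.06.

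Of 6 tested transport and mitophagy genes 0 passed in limma, the median was -0.06, and 1 had an unadjusted p under 0.05, on the lower side. Sqstm1, the autophagy receptor p62, was at -0.17 (limma adjusted p = 0.430) and Trak2, a motor adaptor, at 0.28 (adjusted p = 0.497), with other tested probes at -0.22 and -0.03. Of 7 peroxisome division genes, which share MFF, FIS1 and DRP1 with mitochondria, 0 passed in limma, the median was 0.01, and 2 had an unadjusted p under 0.05, both lower. Acbd4, known in human cells as a tether between peroxisomes and the endoplasmic reticulum, was at -0.31 (adjusted p = 0.220), with its other tested probe at -0.08, and Pex11g, a membrane-shaping peroxin, at -0.19 (adjusted p = 0.368).

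Of 15 tested markers of mitochondrial mass, such as import channels, chaperones and respiratory subunits, 12 were lower in YapCM-/- kidneys and 3 higher, and 0 passed in limma. The median was -0.08, and 4 had an unadjusted p under 0.05, all lower. Of these 4, Hspd1 was at -0.27, with another tested probe at 0.09, and Tfam at -0.20, with another at -0.35. Timm44, also lower at -0.19, had another tested probe at 0.15. The mean log2 level of the 17 genes with a probe was 10.54, 10.60 and 10.53 in the YapCM-/- arrays, against 10.66, 10.69 and 10.65 in the control arrays. These means did not overlap between the groups and differed by -0.11. That was not particular to this list. Means of the fusion regulators (8.99 to 9.02 against 9.07 to 9.11) and of the 8 fission and fusion genes (9.13 to 9.19 against 9.21 to 9.23) did not overlap either. The mean of the 8 genes includes the Mff probe at -0.84 that helped to choose them, so nothing is read from it. Of their 7 tested genes 4 were higher and 3, Mff among them, lower. List means take each gene's probe with the highest mean, and other tested probes of Immt, Yme1l1 and Afg3l2, all fusion regulators, went the other way. Means of the remaining further lists overlapped. Tomm40, the channel of the outer membrane translocase, had 7.89 ± 0.11 in YapCM-/- and 8.22 ± 0.12 in control kidneys (SD, n = 3 each), a difference of -0.32 (limma adjusted p = 0.230), with its other tested probe at 0.04. Atp5a1, the alpha subunit of ATP synthase, had 12.33 ± 0.27 in YapCM-/- and 12.71 ± 0.21 in control kidneys, a difference of -0.38 (adjusted p = 0.364), with its other tested probe at -0.06.

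**Figure D4:**
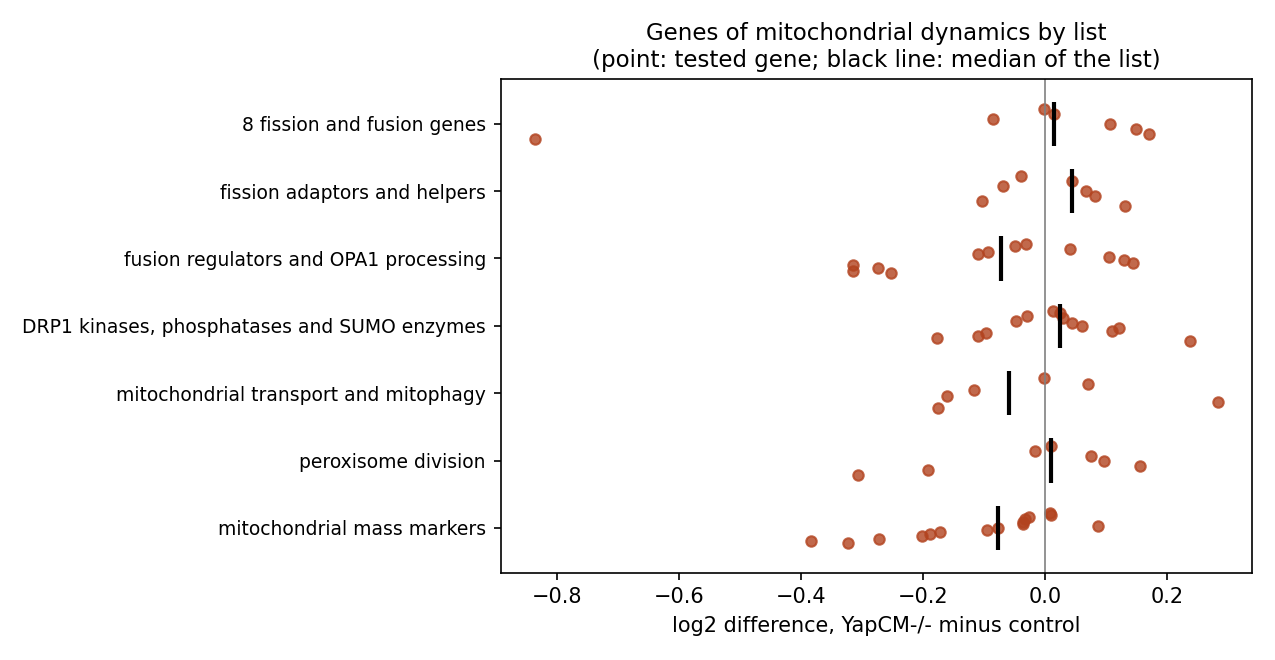
Log2 difference, YapCM-/- minus control, of each tested gene, read by its tested probe with the highest mean, for the 8 fission and fusion genes and 6 further lists; the black line is the median of a list. The medians lie between -0.08 for mitochondrial mass markers and 0.04 for fission adaptors and helpers, and Mff at -0.84 is the farthest point from 0.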

How the data were processed

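Biotin-labelled cRNA made from total RNA was read on Illumina arrays, per the labels' protocols. The authors deposited log2 signals, in 1 table with a column per sample. Sorted values of the 6 columns differ by at most 0.00608, as after quantile normalization; which software and background step made them is not stated in the sources. A second table, before normalization, was not used, because its 12 columns match no sample's labels.

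Gene symbols came from the platform annotation, which can be old. Of the probes 34885 had 1 symbol, 18 had several and 10378 were not listed; gene identifiers of 34807 matched RefSeq (GRCm38.p6), with 0 symbols changed. The 22640 probes with the highest mean were fitted in R 4.3.3 with limma 3.58.1 (lmFit, then eBayes), with two-sided tests, Benjamini-Hochberg adjustment over all of them and a threshold of 0.05. The fit was tested on simulated data. Standard errors of probes below the filter come from a fit of all probes. Precision is limited by having 3 arrays in each group.

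All probes of the 8 genes are named. From each further list the rule takes genes that passed, or 2 genes of smallest p if none did. Immt, Yme1l1, Afg3l2, Hspd1, Tfam and Timm44 are named besides these, to show how far tested probes of a gene agree or disagree. Members, lists and tests were chosen with earlier results of these data known. Other settings covered the filter, the eBayes options, array weights, replicate number as a block, background, threshold, mean of probes and each array left out.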

Additional observations from a re-analysis of the deposited data

How the results depend on the processing

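The 40 probes past the threshold over the whole array became 26 in the upper 25% of probes by mean signal, 64 with trend and robust options, 87 at an adjusted p of 0.1, 13 after normexp background correction and 16 genes with the mean of all probes of a gene. With 1 array left out there were from 6 (without control replicate 3) to 27 (without YapCM-/- replicate 1), with 9 without control replicate 1, 12 without control replicate 2, 25 without YapCM-/- replicate 2 and 26 without YapCM-/- replicate 3. The count of fission and fusion probes past the threshold, 1 in the fit reported, was 0 in each of these 6 fits, 0 after normexp and 0 with the mean of probes, and stayed at 1 with the other settings. The Mff difference of -0.84 ran from -0.91 to -0.70 with 1 array left out, was -0.93 after normexp and was -0.12 for the mean of the 4 Mff probes. The count over the 6 further lists was 0 with every setting tried. The labels do not say whether the replicate numbers pair the samples. Deviations of same-numbered arrays correlated at 0.13, 0.14 and -0.02, and those of other array pairs at -0.30 to 0.23, which does not settle it. With replicate number as a block, 138 probes passed, 1 of them from the set, and YapCM-/- replicate 1 ran more like control replicate 3 (0.23) than like control replicate 1. For the other 23 probes 201 of 207 values with 9 settings moved by less than the replicate SD, and the remaining 6 were dim probes after normexp. Leaving out 1 of 3 arrays can hardly move a mean by that much, and a block leaves the difference as it was. The count of 201 is therefore no measure of robustness for these settings. Dim probes are limited by background: the filter left 10 of 24 untested, among them both Mtfr1 probes.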
